A study of Homo sapiens with 24 samples.

Results

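The broad peaks described here are the 176 peaks of 1000 bp or more, out of 28073 peaks (0.627%), that the peak lists of 21 KRAB zinc finger proteins (KZFPs) place at a score above 80. They were chosen by width and score in any KZFP list, and only where the peak lay more than 1000000 bp from the ends of the chromosomes and from any run of unassembled sequence of 50000 bp or more in hg19, since 330 of the 506 peaks that passed the width and score limits sat near such gaps or ends. The other 27897 peaks, called narrower peaks below, are the comparison. Each KZFP was expressed with an HA tag from a doxycycline-inducible transgene in HEK 293T cells, a transformed line from human embryonic kidney, and doxycycline was given at 1 μg/ml. Anti-HA antibody was then used to pull down the bound DNA. ChIP-exo, where the precipitated fragments are digested by an exonuclease that stops at the protein, was used for 15 KZFPs and ChIP-seq for the other 6, and a ChIP-seq library of 293T control cells (293Tctrl) went through the same steps as the latter. There was 1 library per KZFP and no replicate, so no value below has a replicate error, and the peaks describe tagged protein made in excess in 1 line. The lists hold positions and scores but no read numbers, and the methods give only a minimum depth per assay, so the depth behind a peak is unknown and the cell line could not be checked against marker genes. The score is the deposited MACS value, the −log10 of the p-value of the peak times 10.

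KZFPs carry an array of zinc fingers that reads a DNA sequence and a KRAB domain that most of them use to recruit the corepressor KAP1. Many bind transposable elements, and others bind promoters or arrays of repeated sequence. The site that 1 array of fingers reads is short, and a peak caller joins neighbouring enriched positions into 1 interval.

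Sequences are shown so that the repeated units of some broad peaks can be seen beside broad peaks that lack them. Each stretch is 300 bp around the midpoint of a broad peak, from hg19, plus strand. The first came from 1 of the 5 regions that were broad in 2 libraries, the most for any region. The others, except the last, were the broad peaks with the highest score in the libraries that hold most broad peaks. Stretches with untranslated exons were left out. In the first group the capitals mark 1 unit that is followed by a copy of itself, of 48 bp in both stretches near CICP8, of 67 bp in an intron of ACTN2, which encodes the muscle protein α-actinin-2, and of 20 bp at ESRRAP2, a pseudogene of an oestrogen-related receptor.
ZNF251 and ZNF763, near CICP8 (chr7:56439346-56439645): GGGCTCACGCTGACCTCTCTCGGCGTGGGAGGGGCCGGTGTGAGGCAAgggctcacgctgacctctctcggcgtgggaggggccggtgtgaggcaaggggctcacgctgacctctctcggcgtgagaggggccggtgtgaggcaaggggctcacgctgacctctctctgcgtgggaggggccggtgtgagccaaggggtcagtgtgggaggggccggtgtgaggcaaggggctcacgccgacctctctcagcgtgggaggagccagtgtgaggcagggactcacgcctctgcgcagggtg
ZNF763, near CICP8 (chr7:56441793-56442092): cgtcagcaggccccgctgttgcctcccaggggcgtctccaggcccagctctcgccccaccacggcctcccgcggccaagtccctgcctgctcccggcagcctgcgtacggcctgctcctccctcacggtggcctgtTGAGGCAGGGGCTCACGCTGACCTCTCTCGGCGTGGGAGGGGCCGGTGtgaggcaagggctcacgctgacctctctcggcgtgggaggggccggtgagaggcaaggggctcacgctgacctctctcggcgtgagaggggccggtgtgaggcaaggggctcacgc
ZNF578, ACTN2 intron (chr1:236877460-236877759): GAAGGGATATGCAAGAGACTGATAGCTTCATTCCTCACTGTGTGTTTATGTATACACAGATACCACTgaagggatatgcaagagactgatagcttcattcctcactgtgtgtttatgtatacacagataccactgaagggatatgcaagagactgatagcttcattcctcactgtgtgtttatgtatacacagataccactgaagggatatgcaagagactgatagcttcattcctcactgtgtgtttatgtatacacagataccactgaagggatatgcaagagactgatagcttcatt
ZFP28, ESRRAP2 (chr13:21864329-21864628): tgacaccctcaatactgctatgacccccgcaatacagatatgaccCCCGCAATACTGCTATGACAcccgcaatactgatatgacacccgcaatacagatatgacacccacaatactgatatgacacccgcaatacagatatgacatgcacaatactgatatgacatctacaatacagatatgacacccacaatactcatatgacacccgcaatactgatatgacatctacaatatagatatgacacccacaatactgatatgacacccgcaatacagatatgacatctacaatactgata

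Both stretches of the next pair hold no such unit. They come from the broad peaks with the highest score outside untranslated exons of ZNF251, beside FKBP7, a prolyl isomerase gene, and of ZNF160, far from any named gene. They have no capitals, because neither stretch holds the word that marks the narrower peaks of its library (see the paragraphs on ZNF251 and ZNF160). Outside the printed stretch, the broad peak beside FKBP7 holds 1 copy of it, at -452.5 bp from the midpoint.
ZNF251, beside FKBP7 (chr2:179343425-179343724): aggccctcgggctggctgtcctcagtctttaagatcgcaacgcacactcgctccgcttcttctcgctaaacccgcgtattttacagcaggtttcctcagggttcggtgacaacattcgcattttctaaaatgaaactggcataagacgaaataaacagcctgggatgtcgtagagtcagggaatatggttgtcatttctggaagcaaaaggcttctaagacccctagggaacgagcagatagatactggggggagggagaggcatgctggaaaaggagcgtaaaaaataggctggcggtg
ZNF160, chromosome 13 (chr13:66019429-66019728): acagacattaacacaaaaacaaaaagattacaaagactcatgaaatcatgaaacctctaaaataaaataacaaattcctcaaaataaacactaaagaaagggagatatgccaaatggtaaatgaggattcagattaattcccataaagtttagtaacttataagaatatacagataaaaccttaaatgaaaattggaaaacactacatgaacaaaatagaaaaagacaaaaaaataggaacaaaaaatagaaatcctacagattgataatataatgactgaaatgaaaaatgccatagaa

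The last stretch was chosen after its values were seen, from the broad peak of ZNF251 with most copies of the word of that library. Capitals mark the copies of AAGTGAAA, on either strand.
ZNF251, between genes near NOL10 (chr2:10694062-10694361): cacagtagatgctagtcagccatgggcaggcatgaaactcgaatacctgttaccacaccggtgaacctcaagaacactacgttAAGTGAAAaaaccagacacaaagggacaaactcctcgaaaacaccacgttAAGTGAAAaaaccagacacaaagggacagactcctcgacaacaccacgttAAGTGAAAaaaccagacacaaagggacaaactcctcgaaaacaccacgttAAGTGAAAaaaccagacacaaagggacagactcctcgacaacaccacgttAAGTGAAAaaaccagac

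Broad peaks were found in 10 of the 21 libraries, 9 of ChIP-exo and 1 of ChIP-seq. ZNF251 had 114 of them, ZNF763 had 25, ZNF160 had 16, ZNF578 had 9, ZFP28 had 4, ZKSCAN4 had 3 and ZNF34 had 2, while ZKSCAN7, ZNF416 and ZNF746 had 1 each. As a share of the peaks of a library they were most frequent for ZNF763, with 16.0% (25 of 156 peaks, 95% exact binomial interval 10.6 to 22.7%), against 0.607% for ZNF251 (114 of 18772 peaks, 0.501 to 0.729%), 0.282% for ZNF160 (0.161 to 0.457%) and 1.28% for ZNF578 (0.586 to 2.41%). These intervals cover counting error alone. Width and score chose the peaks and are therefore given as a description. The median width was 1157 bp against 454 bp for narrower peaks, 72 broad peaks were under 1100 bp, 37 reached 1500 bp and 19 reached 2000 bp. The limits cut through a continuous range, since the broad peaks closest to the width limit had 1000, 1000 and 1001 bp and the widest narrower peaks had 998, 999 and 999 bp. Near the score limit, the lowest broad peaks scored 80.29, 80.31 and 83.27, and the highest that were left out, all of ZNF763, scored 77.68, 78.23 and 78.42.

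In the plot of width against score, ZNF251 and ZNF763 lay apart. The broad peaks of ZNF251 had a median score of 1079 (95.49 to 3194) beside 185 for its narrower peaks, and 21 of them stood at a score of exactly 3100, at which 48 narrower peaks of ZNF251 also stood. The broad peaks of ZNF763 had a median score of 110 (83.27 to 268) beside 91.7 for its narrower peaks, and widths of 1016 to 6875 bp. The median score was 463 against 218 in ZNF160 and 195 against 126 in ZNF578. Scores are not scaled for depth and were compared within a library only.

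**Figure D1:**
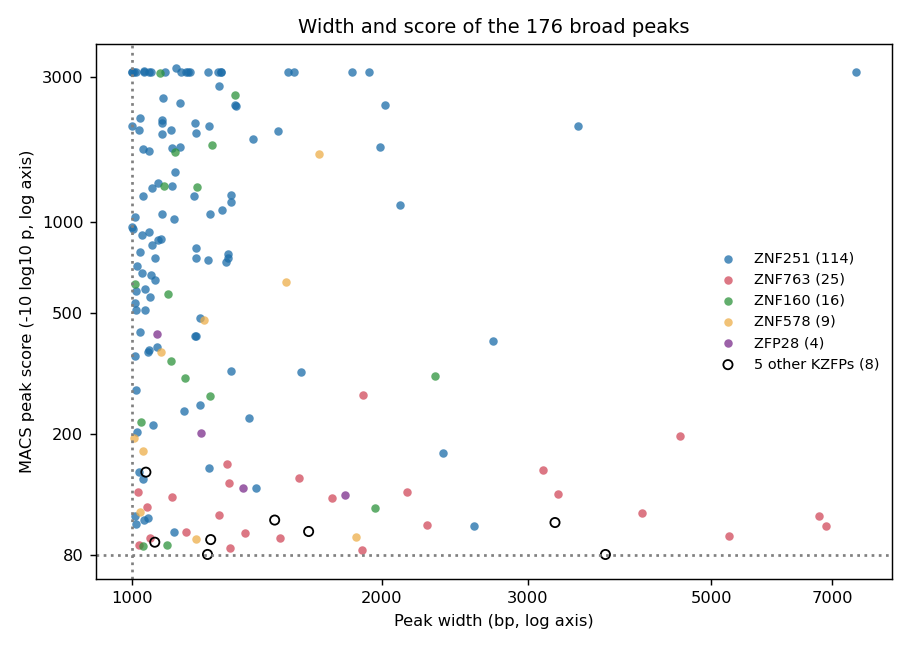
Width in bp (log axis) and MACS score (log axis) of the 176 broad peaks, 1 point per peak, coloured by KZFP, with dotted lines at the limits of 1000 bp and 80. The points of ZNF251 reach a row at 3100, and those of ZNF763 lie under 300 at widths up to 6875 bp.

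Broad peaks fell into 3 classes by sequence and position. A peak was called repeated when its central 1000 bp had a short tandem period (the best period of 2 to 400 bp, with at least 60% of the bases equal to the base 1 period further on) or local copies (at least 50% of its 24-base words found again on the same strand within 30000 bp). A short tandem period was found in 20 of 176 broad peaks (11.4%), beside 0.247% of the narrower peaks, and local copies in 34 (19.3%), beside 0.176%. Both held for 13 broad peaks, so that 41 of 176 (23.3%) were repeated. How reads were divided between repeated copies is unknown, so the widths and scores of these 41 are uncertain. The paper describes a mapping-quality filter for ChIP-seq reads and gives none for ChIP-exo, where MACS kept all duplicate reads. Whether the tagged proteins bound the repeats was not tested. A further 66 (37.5%) were not repeated and had their midpoint within 2500 bp of a transcription start site (TSS), and 69 (39.2%) were in neither class. The median width was 1745 bp in the repeated class, 1088 bp in the TSS class and 1117 bp in the last class. Within ZNF251 the median score was 1598 for its 8 repeated broad peaks, 742 for 56 of the TSS class and 1729 for the 50 others. The classes were unequal between KZFPs. The repeated class held 17 of 25 broad peaks of ZNF763, 7 of 9 of ZNF578 and 4 of 4 of ZFP28, but 8 of 114 of ZNF251 and 3 of 16 of ZNF160.

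**Figure D2:**
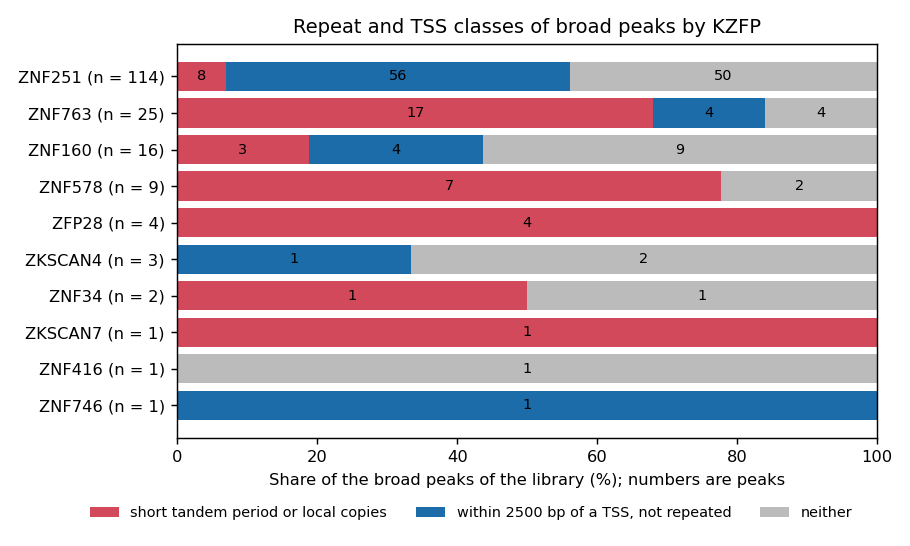
Share of the broad peaks of each library (%) that had a short tandem period or local copies, that were not repeated and lay within 2500 bp of a TSS, or that were neither, with the number of peaks in each bar. ZNF763, ZNF578 and ZFP28 are led by the repeated class (17 of 25, 7 of 9 and 4 of 4) and ZNF251 by the other classes (56 and 50 of 114).

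ZNF251, the KZFP with the longest of these lists, had broad peaks at a median of 2499.5 bp from a TSS, so the limit of 2500 bp split them equally. Within 1000 bp of a TSS lay 46 of its 114 broad peaks. A TSS was found at up to 2500 bp from the midpoint of 57 of 114 broad peaks (50.0%), beside 21.4% of its narrower peaks, and 34 of 114 (29.8%) were CpG-rich, beside 7.11%. Those 57 had a median GC content of 52.3% in the central 300 bp, and 30 of them (52.6%) were CpG-rich, meaning a GC content above 50% and an observed to expected CpG ratio above 0.6, where 30.5% of the narrower peaks near a TSS were. They sat close to the start, with a median distance of 248 bp (14 to 2434 bp) against 669 bp for narrower peaks near a TSS, and 23 of 57 lay within 200 bp. The highest score was at FGGY, a carbohydrate kinase gene, where a peak of 1130 bp (chr1:59762164-59763293) had its midpoint in an untranslated exon 37 bp from a TSS and scored 3194. The next was beside FKBP7 (chr2:179343058-179344092, 1035 bp), 248 bp from a TSS, with 3128. The widest near a TSS was at PCDH9, a protocadherin gene, over 3449 bp (chr13:67802612-67806060), with its midpoint 132 bp from a TSS and a score of 2067.

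The other 57 broad peaks of ZNF251 scored higher, with a median of 1749 against 734 near a TSS, and had a median GC content of 41.7%. They differed also in the word AAGTGAAA, which is the sequence of 8 bases with the largest excess in the central 200 bp of the narrower peaks of ZNF251 over flanks 1000 bp away (39.5% against 2.18% of 18658 peaks). At least 1 copy, on either strand, lay in 31 of these 57 broad peaks (54.4%) and in 15 of the 57 near a TSS (26.3%), where narrower peaks held it in 47.1% and 24.4%. At least 2 copies lay in 12 of the 57 away from a TSS (21.1%) beside 3.02% of narrower peaks away from a TSS, and in 1 near a TSS. A wider peak has more room for a word, and per 1000 bp the broad peaks held fewer copies, 0.470 against 0.961.

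The word was chosen at the centres of the narrower peaks, which raises its share in them and fixes where it lies, so their values are a description. In the 46 that held it, the copy nearest to the midpoint was a median of 222.5 bp away, or 36.6% of the way to the edge, and in the 7882 narrower peaks that held it the median was 26.5 bp, or 11.4%. Within 100 bp of the midpoint lay a copy in 11 of 46 broad peaks (23.9%) and in 93.9% of those narrower peaks. In the 13 broad peaks with 2 or more copies the outermost copies were a median of 403 bp apart (42 to 627 bp), against 102 bp in narrower peaks, which have less room, and in 9 of the 13 they were more than 300 bp apart. The broad peak with most copies, between genes near NOL10, which encodes a nucleolar protein (chr2:10693573-10694851, score 3100), held 9 copies spaced by 50 to 51 bp, of which the printed stretch shows 5.

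**Figure D3:**
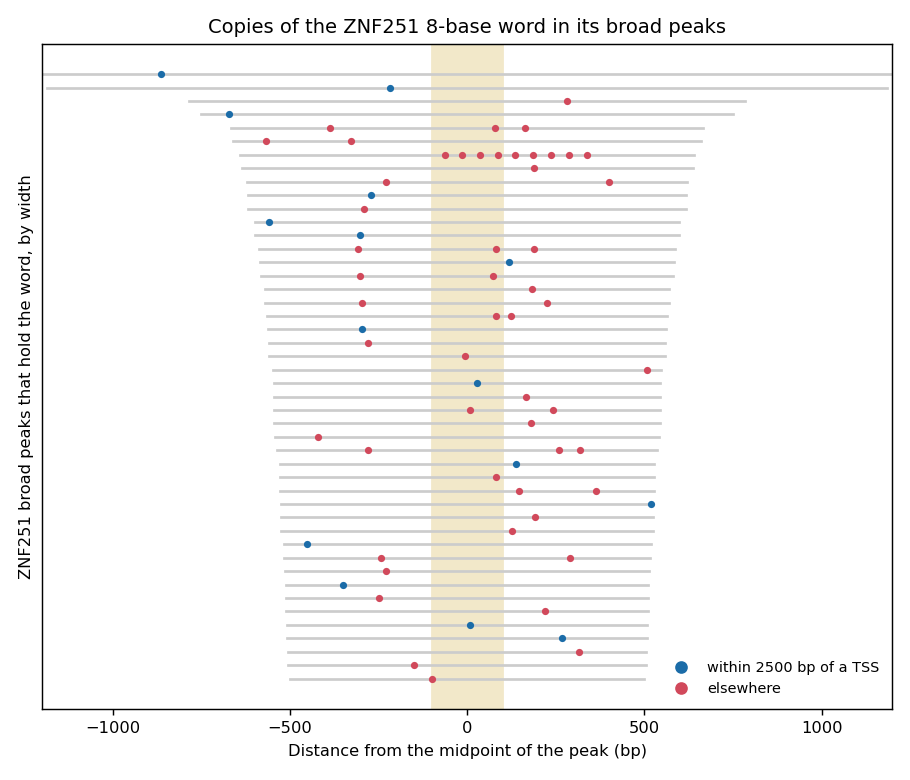
Copies of the 8-base word of ZNF251 (points) in the 46 broad peaks that hold it, at their distance from the midpoint in bp, with 1 grey line per peak for its extent, sorted by width and drawn to 1200 bp on each side. The widest peak reaches further, and 1 of its 2 copies lies outside the frame. The shaded 200 bp around the midpoint hold a copy in 11 of the 46, and most points lie to the sides, in red for peaks away from a TSS and in blue for those near one.

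The broad peaks of ZNF251 are given by range of score as a description, since score and width chose them. All 11 broad peaks with a score of up to 200 were near a TSS, and 9 of them were CpG-rich, among them those at KLF12 and SPRY2, which encode a transcriptional repressor and an inhibitor of growth factor signalling. The share near a TSS was 64.7% of 17 broad peaks at scores of 200 to 500, 52.0% of 25 at 500 to 1000 and 36.1% of 61 above 1000. In narrower peaks it was 22.2%, 19.3%, 20.6% and 29.2% in the same ranges.

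The repeated broad peaks of ZNF251 were few, 4 with a short tandem period (beside 0.145% of its narrower peaks) and 5 with local copies (beside 0.113%). Introns of NADSYN1, which encodes an NAD synthetase, and of GALNT17, a glycosyltransferase gene, had broad peaks with a score of 3100 over periods of 35 bp (86.1% match) and 50 bp (79.2% match). A coding exon of TCHH, which encodes trichohyalin of the hair follicle, had a broad peak of 2103 bp over a period of 90 bp (81.9% match) with a score of 1136.

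ZNF763 had local copies at most of its broad peaks, and some of these lay in clusters. Its 25 broad peaks lay at 16 loci when peaks within 50000 bp were joined, and 17 had local copies (68.0%, beside 6.87% of its narrower peaks). A TSS was near 11 of 25 (44%, beside 39.7%), and 12 of 25 were CpG-rich (48.0%, beside 35.1%). At LINC00665, a long non-coding RNA gene on chromosome 19, 4 broad peaks of 4586 to 6875 bp covered 23455 of 33358 bp (chr19:36764692-36798049), with scores of 92.59 to 197.5, and the nearest copies of their central sequence were 2515 to 2541 bp away. Further on the same chromosome, 3 broad peaks of ZNF763 and 1 of ZNF34 lay within 31469 bp at LINC01535 and ENSG00000267605 (chr19:37763110-37794578), with copies 2524 to 2538 bp away. A broad peak of 1 locus and a broad peak of the other matched at 100% of bases in 1 pair and at 95.3% in another. Near CICP8 on chromosome 7, the 2 broad peaks of ZNF763 (151.94 and 268.13) had copies 1294 to 1298 bp away, and at KATNAL2, where ELOA3P and ELOA3DP lie in tandem, the 2 broad peaks (84.12 and 100.14) had copies 5915 to 5927 bp away. The 5S ribosomal RNA genes of chromosome 1 gave 1 broad peak of 2147 bp over RNA5S12 (128.84), with copies 2225 bp away.

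Another 6 broad peaks of ZNF763, at 6 loci, shared 1 GC-rich repeat. They lay in introns of PTPN9 (a tyrosine phosphatase gene), STON1 (stonin, of endocytosis), WDR33 (a subunit of the polyadenylation machinery) and AP3S2 (an adaptor complex subunit), and between genes near HLA-C and CKS1BP6. Their central 300 bp had a GC content of 79.3 to 81.3% and matched each other over at least 100 bp at a median of 93.3% identity. They held 9 to 19 copies of CCCCCCAC, the word with the largest excess at the centres of the narrower peaks of ZNF763 (22.9% against 0.763% of 131 peaks in the flanks), with median steps of 49 to 127 bp. They were the only broad peaks of ZNF763 with 2 or more copies of it (6 of 25, or 24.0%, beside 16.0% of the narrower peaks). In windows of 1000 bp around each midpoint the shares were 24.0% and 16.8%. CCCCCCAC was chosen in the narrower peaks of ZNF763, so their shares are a description. No annotation of repeat families was used, so the repeat is not named.

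In ZNF160, 8 of 16 broad peaks lay on chromosome 13 (50.0%), beside 4.88% of its narrower peaks, and 5 of 16 (31.3%) were near a TSS, beside 6.73% of its narrower peaks. Their median GC content was 33.3% (25.3 to 45.0%), and that of the narrower peaks of ZNF160 was 31.3%. The 4 with the highest scores, chr13:66019038-66020119 with 3085 and 3 others at 1692 to 2599.9, were 34820 bp or more from the nearest TSS. The word of ZNF160, AGAAGAAA, was in 9 of 16 broad peaks (56.3%) and in 42.4% of its narrower peaks, with 2 or more copies in 7 (43.8%) and 8.13%, and the outermost copies were a median of 379 bp apart in those 7. That word was chosen in the narrower peaks of ZNF160, so their shares are a description. A wider peak has more room for the word, and per 1000 bp the broad peaks held 0.844 copies against 1.07. In windows of 1000 bp around each midpoint, the word was in 56.3% against 51.5%. There, 2 or more copies lay in 43.8% against 14.6%. A pair of near-identical broad peaks (99.6% identity) lay beside PPP1R26P4 and PPP1R26P5, copies of a pseudogene on chromosome 22, with scores of 622.5 and 1309. How reads were divided between such copies is unknown, and both values are uncertain.

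ZNF578 had the most regular repeats. A short tandem period was found in 7 of 9 broad peaks, beside 1.73% of its narrower peaks, and local copies in 6 of 9, beside 0.432%. Its word, GGTCCTGA, was chosen in its narrower peaks, so their share of 67.5% is a description. It was in 2 of 9 broad peaks and in none of the 7 with a short tandem period. The highest score, 1675, was in an intron of ACTN2 (chr1:236876770-236878450), where every base of the central 1000 bp equalled the base 67 bp further on. The others had periods of 36 bp near LINC02525 (86.1% match) and near ANP32BP2 (80.7%), 28 bp in an intron of LYRM4, a mitochondrial iron-sulphur cluster gene (70.1%), 49 bp near RNU7-144P (62.6%), and 171 and 343 bp at a pair of places on chromosome 11 near ANKRD33BP2 and TRIM51CP (89.7% and 68.8%). The only broad peak of ZKSCAN7 lay next to the latter (chr11:48961002-48962245, 89.88) over a period of 171 bp (71.9%). All 4 broad peaks of ZFP28 had local copies, beside 0.839% of its narrower peaks, and 1 also had a short tandem period, beside 0.315%. They were the 20-bp array at ESRRAP2 (425.38) and 3 that were copies of each other, with 100% of the 24-base words found again 5335 to 5354 bp away, within 17751 bp between ZNF473CR and IZUMO2 on chromosome 19 (125.53 to 201.67). The only broad peak from ChIP-seq was that of ZNF746 at ENAH, an actin regulator gene (chr1:225840201-225841239, 149.81), with a GC content of 79.0% and its midpoint 105 bp from a TSS.

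Broad and narrower peaks were then compared by library, which gives 1 difference per library and is the unit of the test, since peaks of a library share their source. Only ZNF251, ZNF763, ZNF160 and ZNF578 had 5 or more broad peaks, so the exact permutation test (two-sided, all sign flips) could not go below p = 0.125 and no adjusted p could reach 0.05. In these 4 libraries the share near a TSS was higher by 18.6 ± 10.7 percentage points (SD, n = 4) in broad peaks (39.6% against 21.0%), the GC content of the central 300 bp by 3.85 ± 2.73 points, and the observed to expected CpG ratio by 0.0927 ± 0.0707, each in 4 of 4 libraries (adjusted p = 0.225, exact). The difference near a TSS was 6.55 points with protein-coding transcripts (higher in 3 of 4 libraries), 8.81 with all deposited peaks, 10.2 with a window of 1000 bp, 11.7 over libraries with 3 or more broad peaks, 12.0 with a width of at least 1500 bp and -0.569 without the distance rule (higher in 5 of 11). The share of distinct 12-base words in the central 1000 bp differed by -16.7 points (80.2% against 96.9%, or -7.54 without ZNF578), also in 4 of 4 (adjusted p = 0.225, exact). Over the 10 libraries with at least 1 broad peak, a choice made after seeing the data, GC content was higher by 2.97 ± 3.06 points, in 9 of 10 libraries (adjusted p = 0.0410), and the CpG ratio by 0.106 ± 0.127, in 9 of 10 (adjusted p = 0.0410), both by the exact permutation test. Over the same 10 the share near a TSS was higher by 1.24 points, in 6 of 10 (adjusted p = 0.885), and the distinct 12-base words differed by -10.2 points, fewer in 7 of 10 (adjusted p = 0.0598), again by the exact permutation test. A library with 1 broad peak has the same weight there as ZNF251 with 114.

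Summed over libraries, 78 of 176 broad peaks (44.3%) had the midpoint within 2500 bp of a TSS, beside 18.8% of the narrower peaks, and 49 (27.8%) were CpG-rich, beside 6.32%. With 1 broad peak per library and locus, 74 of 157 (47.1%) were near a TSS and 23 (14.6%) had local copies, against 19.3% when each broad peak counted. WindowMasker, which marks words that are frequent in the genome, marked 46.0% of the central 300 bp of broad peaks and 54.7% of that of narrower peaks in the 4 libraries (a difference of -8.75 points, adjusted p = 0.422, exact), lower in 3 of 4 libraries.

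**Figure D4:**
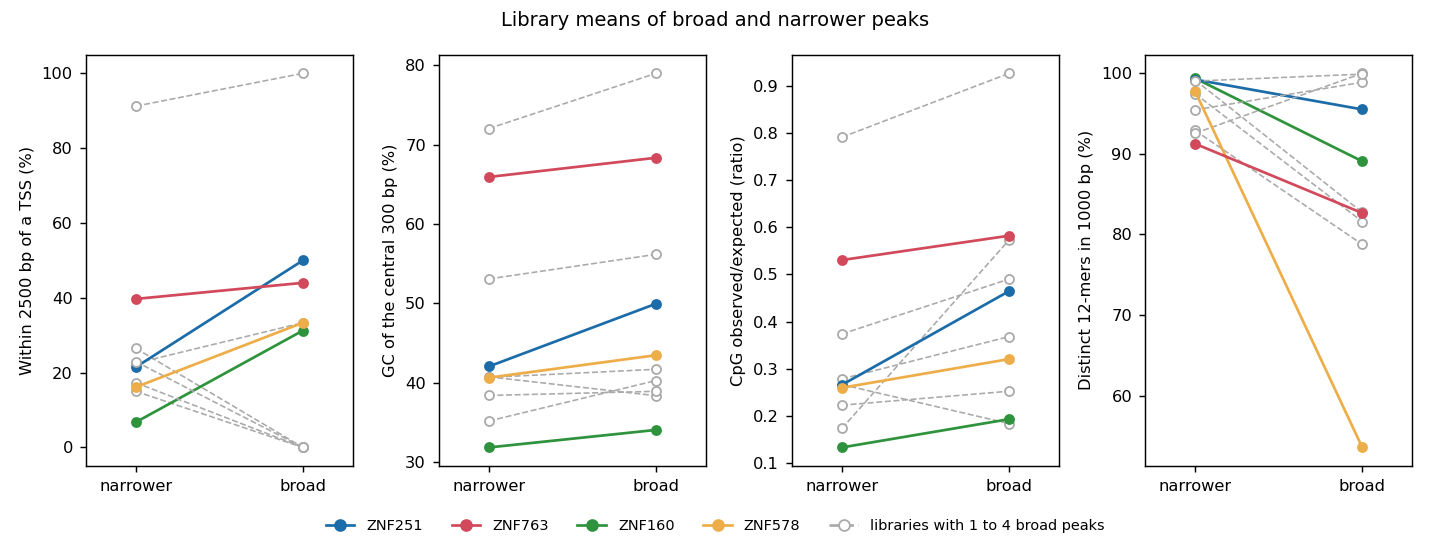
Mean over the narrower and over the broad peaks of each library, joined by a line, for the share within 2500 bp of a TSS (%), the GC content of the central 300 bp (%), the CpG observed/expected ratio and the share of distinct 12-base words in the central 1000 bp (%). The 4 libraries with 5 or more broad peaks (coloured) rise in the first 3 panels and fall in the last, and those with 1 to 4 broad peaks (grey, dashed) go both ways near a TSS.

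The genes at broad peaks were counted by the groups that the study's subject offers. A protein-coding gene held the midpoint of 80 of 176 broad peaks (45.5%), beside 46.3% of narrower peaks. By library the difference was -14.0 points over the 4 libraries (32.7% against 46.7%, lower in 3 of 4, adjusted p = 0.321, exact permutation test) and -25.1 points over the 10 (lower in 8 of 10, adjusted p = 0.0571, exact permutation test). No broad peak had its midpoint in any of 754 zinc finger genes, beside 1.24% of narrower peaks. A count of 0 of 176 allows a share of up to 2.07% (95% exact binomial), so the difference was not detectable at this number of peaks. By any overlap, 1 broad peak touched a zinc finger gene, ZFP2 (0.568%, beside 1.28% of narrower peaks). A gene of a small RNA, RNA5S12 or snoU13, was touched by 3 (1.70%, beside 0.276%). None touched a ribosomal protein or histone gene, which 0.0932% and 0.0681% of narrower peaks did. At such low shares no conclusion is drawn from a count of 0 of 176. A wider peak overlaps more genes, so these shares are not compared at equal width. No broad peak lay in the gene of the transduced KZFP, and none overlapped a deposited peak of 293Tctrl, whose 4 peaks above 80 all lay near gaps or chromosome ends. The control list is from ChIP-seq and holds 163 deposited peaks, while all broad peaks but 1 are from ChIP-exo. Little overlap was therefore possible, the share for narrower peaks is not given, and no conclusion is drawn from the absence.

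The broad peaks merged into 171 regions at 148 loci, and most belonged to 1 KZFP. In 161 regions 1 library had a peak above 80, 10 regions had such peaks in 2 or more libraries, and 23 had a deposited peak of any score in 2 or more. The midpoint lay in a peak above 80 of another KZFP in 11 of 176 broad peaks (6.25%), beside 1.13% of narrower peaks. By library the difference was 2.03 points over the 4 libraries, higher in 2 and lower in 2 (adjusted p = 0.625, exact permutation test), and -0.773 over the 10, higher in 4 and lower in 6. No region was broad in 3 or more libraries and 5 were broad in 2. Of these, both regions near CICP8 and RNA5S12 were broad for ZNF251 and ZNF763 (405.14 and 151.94, 226.21 and 268.13, and 99.56 and 128.84), a region near CDC27P1, a pseudogene of an anaphase-promoting complex subunit, for ZNF34 and ZNF763 (102.28 and 126.52), and an intron of LINC00632, which hosts a circular RNA of the brain, for ZKSCAN4 and ZNF160 (80.31 and 310.15). The most widely shared lay in an intron of CDC27 on chromosome 17, broad for ZKSCAN4 (95.56), with narrower peaks above 80 for ZFP28, ZNF416 and ZNF578. Peaks of 50 to 80 lay there in 4 more libraries, 8 of 21 in all. Those of ZNF546, ZNF724P, ZNF729 and ZNF850 were 1359, 1640, 1486 and 1344 bp wide, and ZNF578 had a second peak of 1415 bp (52.3). The score limit of 80 alone kept these peaks from being counted as broad.

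**Figure D5:**
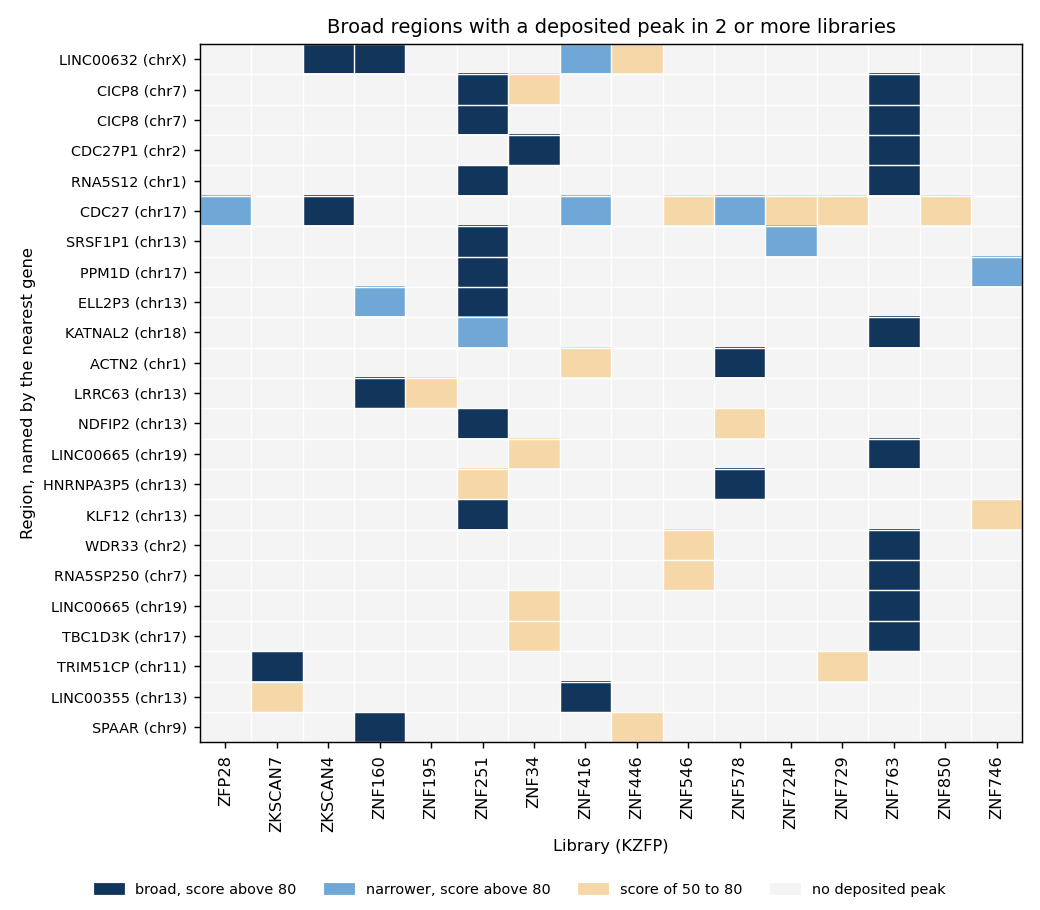
The 23 broad regions (rows, by nearest gene) with a deposited peak in 2 or more libraries (columns), as broad peaks above 80, narrower peaks above 80, peaks with a score of 50 to 80, or none. The top 5 rows are broad in 2 libraries, and the row of CDC27 has peaks in 8.

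Broad peaks were unevenly placed. Chromosome 13 held 30 of 176 (17.0%), beside 4.60% of narrower peaks, 18 of them of ZNF251, 8 of ZNF160, 2 of ZNF578 and 1 each of ZFP28 and ZNF416. Broad peaks made up 2.28% of the peaks of chromosome 13 and 0.546% of those of the other chromosomes, and the narrower peaks of ZNF251 and ZNF160 were also wider there, with medians of 480 against 448.5 bp and 509 against 472 bp. Their median scores on chromosome 13 and elsewhere were 205 and 184 for ZNF251 and 189 and 219 for ZNF160. Without chromosome 13, 71 of 146 broad peaks (48.6%) were near a TSS and 33 (22.6%) had local copies.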

How the data were processed

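Peaks of HA-tagged KZFPs in HEK 293T cells were taken from the deposited BED lists, in which the authors give the position and the MACS score of each peak. Per the submitters' processing notes, reads were aligned to hg19 with Bowtie2 (2.2.1) and peaks were called with MACS (1.4), and no deposited peak scored under 50. From these lists, peaks with a score above 80 were kept if they lay more than 1000000 bp from chromosome ends and from gaps of 50000 bp or more, and those of 1000 bp or more were called broad. The members and lists were chosen with earlier results of these data known. Positions were set against 254413 GENCODE transcripts on hg19. Sequence was read with pysam (0.24.0), frequent words were marked with WindowMasker (1.0.0) and matches between broad peaks were found with blastn (2.17.0, at least 100 bp). Python (3.11.15) was used for overlaps between peaks and for the exact permutation test over libraries, adjusted by Benjamini-Hochberg over 9 measures. The permutation test was tried on simulated data. Exact binomial intervals were computed with scipy (1.17.1). Named peaks were the 10 widest, the 10 with the highest score, the highest of each library and regions broad in 3 or more libraries. Peaks described as having repeats, word copies, several broad peaks at a locus or peaks of several KZFPs were chosen after their values were seen. Total input samples were not used here. Some peaks and sequences that the rules select are not reported here. Read depth per library is not in the lists.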

Additional observations from a re-analysis of the deposited data

Results flagged for a closer look

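Deposited peaks of 1000 bp or more with a score of 50 to 80, which the comparisons above do not use, were also found away from gaps. There were 37 for ZNF763, 9 for ZNF34, 5 for ZNF251, 4 for ZNF160, 4 for ZNF416 and 4 for ZNF578. The 293Tctrl list held 0 of them, for which a count of 0 allows up to 3, and these 6 libraries are listed because they lay above that limit, while the other 15 held 0 to 3. The control list is short, with 163 deposited peaks beside 3480 for ZNF763. For ZNF763 the number exceeded its 25 broad peaks above 80, and for ZNF34 it exceeded its 2. The control was a ChIP-seq library and these 6 were ChIP-exo libraries, so assay and protein cannot be told apart here.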

How the results depend on the processing

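The files give no depth per library, beside the minimum per assay in the methods, and each KZFP had 1 library. No paired analysis was possible because no KZFP had replicates to pair by number, other than the pairing of broad and narrower peaks within a library that the test uses. Under the alternatives 164 values kept their direction and their side of the threshold, 16 came to pass it, 17 counts moved and 8 values changed sign, and the cause was not tested. With a width of at least 800 bp there were 668 broad peaks (2.38%) in 663 regions, the differences were 17.1 points near a TSS, 4.22 for GC content, 0.0967 for the CpG ratio and -9.15 for distinct words (adjusted p = 0.0352 each, exact permutation test), and those for peaks of another KZFP (-1.77) and zinc finger genes (1.64) changed sign. With at least 1500 bp there were 37 (0.132%) in 34 regions, 3 of them broad in 2 or more libraries. Without the distance rule there were 506 (1.6%) in 18 libraries and 429 regions, 50 of them broad in 2 or more, the differences near a TSS (-0.569) and for WindowMasker (5.47) changed sign, and those for the CpG ratio (0.285), peaks of another KZFP (34.7), distinct words (-18.7), protein-coding genes (-28.1) and zinc finger genes (-0.752) passed the threshold. With all deposited peaks, 17 libraries had broad peaks and 12 regions were broad in 2 or more, the CpG ratio (0.148), peaks of another KZFP (20.6), distinct words (-14.7) and protein-coding genes (-22.5) passed, and zinc finger genes (1.03) changed sign. Above a score of 150, 5 libraries had broad peaks and 2 regions were broad in 2 or more. Matches of at least 200 bp joined 24 broad peaks. As choices made after seeing the data, libraries with at least 3 broad peaks gave 0.876 for WindowMasker, a changed sign, and those with at least 1 gave 2.97 for GC content, 0.106 for the CpG ratio and -1.19 for zinc finger genes, which passed, and -0.773 for peaks of another KZFP, a changed sign. For zinc finger genes the broad share was 0 in every library, so no difference could be positive. Its passing there follows from the narrower peaks alone, and no conclusion is drawn from it. Leaving out 1 library at a time gave 15.3 to 23.4 near a TSS, 2.49 to 4.39 for GC content, 0.0574 to 0.106 for the CpG ratio, 7.11 to 14.7 for CpG-rich windows, -0.0786 (without ZNF763) to 3.86 for peaks of another KZFP, -12.6 to -3.53 for WindowMasker, -21.0 to -7.54 (without ZNF578) for distinct words, -21.0 to -10.7 for protein-coding genes, -1.55 to -0.984 for zinc finger genes, 11.7 (without ZNF578) to 35.9 for short tandem periods and 23.9 to 44.5 for local copies.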
